A study of Mus musculus with 2 samples.

Results

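The genes described here control plasminogen activation and the start and braking of clotting at the cell surface. They are the plasminogen activators Plat and Plau, the urokinase receptor Plaur, the plasminogen receptor Plgrkt, the serpin inhibitor Serpine2, the thrombin receptor Thbd (thrombomodulin), the clotting initiator F3 (tissue factor) and its inhibitor Tfpi. Members were taken by gene symbol, and all 8 were found among the 23420 gene rows of the count table. The tissue was RPE-choroid, that is the retinal pigment epithelium, a pigmented cell sheet beneath the retina, together with the vascular coat behind it. The mice were untreated and 11 to 13 months old, and the tissue of 2 eyes was pooled for each polyA-enriched library. One group of 3 animals is labelled AhR -/- (strain B6.129-AhRtm1Bra/J, in which Ahr, encoding the aryl hydrocarbon receptor, is targeted). The other group of 3 is labelled AhR +/+ (strain C57BL6/J), so strain background and genotype cannot be told apart. Nothing in the labels says whether the controls were littermates.

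Plasmin is a serine protease that dissolves fibrin and degrades matrix proteins, and it arises from circulating plasminogen, which the liver makes. Tissue-type activator (Plat) works mostly on fibrin, whereas urokinase (Plau) works at the cell surface, bound to its receptor (Plaur). Serpins such as protease nexin 1 (Serpine2) stop both activators and thrombin. Tissue factor (F3) starts clotting where blood meets extravascular cells, Tfpi blocks that step, and thrombomodulin on endothelium turns thrombin toward activating the anticoagulant protein C. Invading vessels use the urokinase system to loosen matrix, and the series title names vessel growth in the choroid as the study's subject.

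Promoter windows are shown for the 3 members in which a searched motif was found, since the labels contrast mice with and without AhR, a DNA-binding factor. RefSeq promoter windows on GRCm38.p6, running from 250 bases before to 50 after the annotated start, were held for 5 of the 8 members in 6 windows. No window was held for Plat, Plau or Thbd, so these were not searched. The AhR-Arnt core GCGTG was searched on both strands, so that its reverse complement CACGC counts too. The AP-1 site TGAGTCA, with its reverse complement TGACTCA, was added after the data were seen. Neither motif overlaps the other in these windows, and capitals below mark every match.
Plgrkt, chr19:29361822-29362121, minus strand: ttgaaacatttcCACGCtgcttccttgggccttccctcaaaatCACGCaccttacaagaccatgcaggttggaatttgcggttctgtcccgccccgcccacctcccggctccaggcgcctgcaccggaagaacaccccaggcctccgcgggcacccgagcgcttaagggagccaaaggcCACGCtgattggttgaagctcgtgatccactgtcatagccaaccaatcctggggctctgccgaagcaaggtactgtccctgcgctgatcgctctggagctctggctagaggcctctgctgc
Plaur, chr7:24462233-24462532, plus strand: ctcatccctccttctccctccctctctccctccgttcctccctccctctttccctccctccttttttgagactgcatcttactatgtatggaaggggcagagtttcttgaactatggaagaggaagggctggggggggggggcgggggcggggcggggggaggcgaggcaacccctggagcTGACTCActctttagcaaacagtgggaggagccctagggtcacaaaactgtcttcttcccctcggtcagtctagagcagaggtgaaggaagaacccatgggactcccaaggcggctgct
F3, chr3:121723287-121723586, plus strand: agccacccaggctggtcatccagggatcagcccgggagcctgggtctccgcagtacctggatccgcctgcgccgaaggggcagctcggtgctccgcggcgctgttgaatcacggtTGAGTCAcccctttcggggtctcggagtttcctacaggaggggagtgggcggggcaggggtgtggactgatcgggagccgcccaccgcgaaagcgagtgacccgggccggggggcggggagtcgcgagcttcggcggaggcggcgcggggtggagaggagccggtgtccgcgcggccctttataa
The Plgrkt window held 3 cores, all in the reverse orientation, with first bases at -238, -207 and -71 from the RefSeq start of that window. The windows of Plaur, Serpine2, F3 and Tfpi held none. The Plgrkt and Serpine2 windows lie inside the spans that GENCODE M21 gives these genes (29348599 to 29367390 and 79794197 to 79861180). The outer 5' ends of those 2 spans were not searched. Of 32851 windows of 300 bases, 32.4% held at least 1 core and 11.1% at least 2. Plaur held 1 AP-1 site, first base at -69, and F3 held 1, at -135, against 5.2% of all windows with a site. These matches describe letters only and show neither binding nor its absence.

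Library sizes, as the sum over genes, ran from 18058725 to 28692624 counts. The defining RPE markers Rpe65, Rlbp1, Ttr and Rgr and the endothelial markers Cdh5 and Kdr were present in every library. Animal 1 was female and animals 2 and 3 male in both groups, as read from Xist. Levels are given as CPM, counts scaled to the library size. Ahr read 41.4, 45.4 and 40.6 CPM in the group labelled AhR -/- and 19.7, 20.2 and 26.0 CPM in wild type (log2 fold change 0.95, SE 0.16, edgeR adjusted p = 0.0991). DESeq2 called Ahr (adjusted p = 0.000216), as did the edgeR exact test (adjusted p = 0.000539) and edgeR without knockout-labelled animal 1 (adjusted p = 0.0258). The authors' deposited table lists an FDR of 0.00306 for Ahr. Over all alternatives its adjusted p reached 0.374. Without knockout-labelled animal 1 edgeR called 795 genes across the table, against 8 with every library kept. Counts summed over all exons of Ahr leave the targeted part unchecked. The direction goes against a loss of transcript, so the libraries are called knockout-labelled. Knockout-labelled animal 1 stood apart in red cell markers, at a summed 1118 CPM against 4.32 to 78.4 CPM in the other libraries. Of 9 surface epithelium markers (cornea and conjunctiva, from the front of the eye, which the protocol removes), all had log2 fold changes above 0 and 0 were called. Their sums were 3775, 15706 and 12167 CPM in knockout-labelled animals 1 to 3, against 6367, 2637 and 3099 CPM in the wild type. Neutrophil markers summed to 56.2 to 117 CPM in knockout-labelled and 6.01 to 11.8 CPM in wild-type libraries (1 of 4 tested called), with Ngp, Elane and Mpo at 0 throughout. Ltf made up most of the knockout-labelled sums, at 46.0 to 88.0 CPM, and Camp was lower on average, so that 3 lay above 0 and 1 below.

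None of the 8 members passed edgeR's quasi-likelihood test (0 of 8 called at a Benjamini-Hochberg adjusted p under 0.05), where 0.0506% of all 15796 genes were called (0.0253% higher and 0.0253% lower). Unadjusted, p was under 0.05 for 2 members, Plat and Plau, against 14.2% of all genes. DESeq2 and the edgeR exact test also called 0 members, against 3.06% and 2.26% of all genes. All 8 members passed the filter on low counts. Their median log2 fold change, knockout-labelled over wild type, was -0.09, and that of all genes was 0.01. The libraries of the groups did not overlap for 2 members, Plau above and Plat below, where 20% of all genes did not overlap (10% higher and 9.96% lower). Shares of 2 in 8 are near that background, so these counts show nothing particular to the members.

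**Figure D1:**
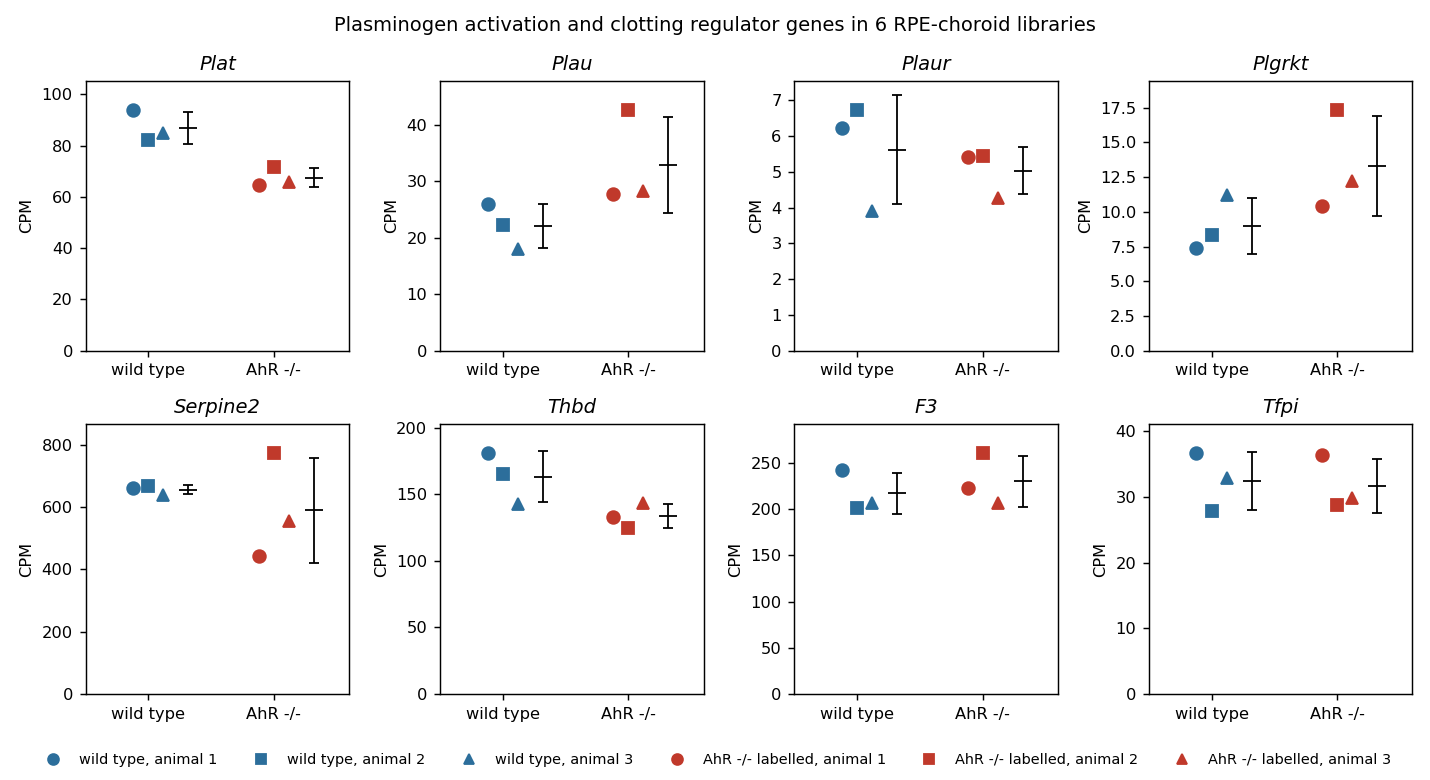
CPM of each member (vertical axis, from 0) in the 3 wild-type (blue) and 3 knockout-labelled libraries (red); symbols mark the animals and the black bar is the group mean with its SD. Plat at 64.8 to 71.7 CPM lies below every wild-type library, Plau at 27.8 to 42.6 CPM above every wild-type library, and the other 6 members overlap.

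Plat, encoding tissue-type plasminogen activator (chromosome 8, 22757727 to 22782844, plus strand, GRCm38), read 64.8, 71.7 and 65.8 CPM in the knockout-labelled group (animals 1, 2 and 3, the order used throughout). In the wild type it read 93.9, 82.2 and 84.7 CPM. Every knockout-labelled library was below every wild-type library, and the spread within each group was small. The means were 67.5 ± 3.74 and 86.9 ± 6.16 CPM (SD, n = 3 each), with a log2 fold change fitted at -0.37 (SE 0.11, edgeR adjusted p = 0.224). Over 17 alternatives the log2 fold change of Plat ran from -0.47 to -0.31 and its adjusted p from 0.141 to 0.525.

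Plau, encoding urokinase (chromosome 14, 20836660 to 20843385, plus strand), read 27.8, 42.6 and 28.2 CPM (knockout-labelled) and 25.9, 22.2 and 18.1 CPM (wild type). The groups touched closely: knockout-labelled animals 1 and 3 lay just above wild-type animal 1, and knockout-labelled animal 2 was far above the rest. The means were 32.9 ± 8.45 and 22.1 ± 3.94 CPM (SD, n = 3 each), with a log2 fold change fitted at 0.57 (SE 0.22, edgeR adjusted p = 0.292). Without knockout-labelled animal 2 the log2 fold change was 0.34, and with the level of cornea markers as a covariate it was 0.28 (edgeR adjusted p = 0.823).

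In CPM, Plat was above Plau in all 6 libraries. Per kilobase of annotated exon, 6241 bases for Plat and 2367 for Plau, their order differed between the groups, and it rests on those lengths, which count exons that may go unused here. Plat was at 15.04, 13.2 and 13.6 CPM per kb in wild-type animals, above Plau at 11.0, 9.39 and 7.63. In knockout-labelled animals Plat was at 10.4, 11.5 and 10.5 CPM per kb, below Plau at 11.7, 18.02 and 11.9. The ratio of Plat to Plau per length was 0.88, 0.64 and 0.88 in knockout-labelled animals and 1.37, 1.40 and 1.78 in wild-type animals. On the log2 scale its mean was -0.33 ± 0.27 against 0.59 ± 0.21 (SD, n = 3 each). Since Plat lay below and Plau above every wild-type library, these ratios could not overlap, and they restate those readings. The ratio was not tested.

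**Figure D2:**
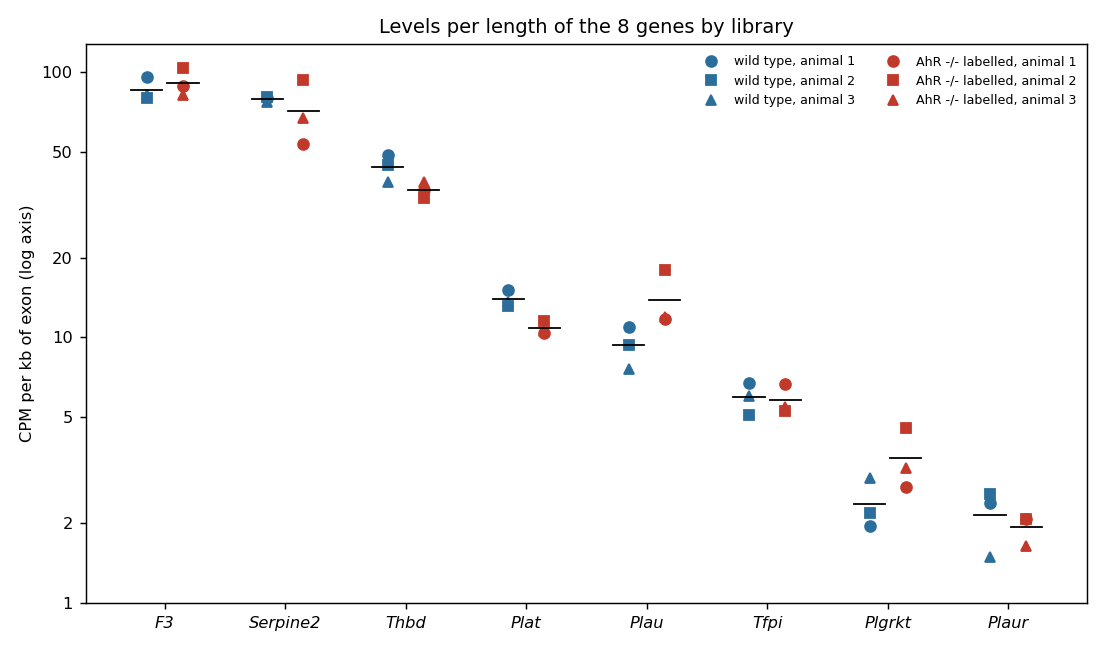
Level of each member per kilobase of exon (log axis, CPM per kb) by library, wild type in blue and knockout-labelled in red, with black lines at the group means. F3 and Serpine2 stand highest, Plgrkt and Plaur lowest, and Plat and Plau, whose order in CPM is the same in all 6 libraries, exchange places between the groups on this scale.

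Plaur, which anchors urokinase to the cell surface (chromosome 7, 24462484 to 24475968, plus strand), had the lowest mean of the members per length. It was read at 99 to 166 counts per library, the fewest of the 8. Plaur read 5.40, 5.43 and 4.27 CPM (knockout-labelled) and 6.24, 6.73 and 3.90 CPM (wild type). Wild-type animal 3 was the lowest of all 6, and the groups overlapped (log2 fold change -0.16, SE 0.33, edgeR adjusted p = 0.87). Without wild-type animal 3 the value was -0.39. The ratio of Plau to Plaur per length was 5.68, 8.68 and 7.31 in knockout-labelled animals and 4.60, 3.65 and 5.12 in wild-type animals. It did not overlap between the groups, and the ligand's higher reading makes up most of that gap.

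Plgrkt encodes a transmembrane receptor that holds plasminogen at the surface of macrophages and other cells (chromosome 19, 29348599 to 29367390, minus strand). It read 10.4, 17.3 and 12.2 CPM (knockout-labelled) and 7.41, 8.30 and 11.2 CPM (wild type). Knockout-labelled animal 2 was again the highest, and wild-type animal 3 lay above knockout-labelled animal 1. The means were 13.3 ± 3.61 and 8.98 ± 2.00 CPM (SD, n = 3 each), with a log2 fold change fitted at 0.57 (SE 0.27, edgeR adjusted p = 0.386). It was 0.33 without knockout-labelled animal 2 and 0.36 with the cornea marker covariate. This is the member whose promoter window held 3 AhR-Arnt cores, and a link between those cores and its readings was not tested.

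Serpine2 encodes a serpin that cells secrete and that inhibits thrombin, urokinase and tissue-type activator (chromosome 1, 79794197 to 79861180, minus strand). It read 442, 773 and 554 CPM (knockout-labelled) and 660, 668 and 639 CPM (wild type). The wild-type libraries were nearly alike, with a coefficient of variation of 2.22%, while the knockout-labelled libraries spread on both sides of them at 28.5%. The log2 fold change was -0.15 (SE 0.20, edgeR adjusted p = 0.779), and leaving out knockout-labelled animal 1 or 2 moved it to 0.02 or -0.40. With the cornea marker covariate it was -0.48. The ratio of Plat to Serpine2 overlapped between the groups, at a log2 of -2.68 ± 0.33 and -2.51 ± 0.10 (SD, n = 3 each).

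Thbd, the endothelial thrombin receptor (chromosome 2, 148404466 to 148408188, minus strand), read 133, 125 and 143 CPM in knockout-labelled animals. In wild-type animals it read 181, 166 and 143 CPM. The groups met at a single point, knockout-labelled animal 3 and wild-type animal 3. The means were 134 ± 9.16 and 163 ± 19.2 CPM (SD, n = 3 each), with a log2 fold change fitted at -0.29 (SE 0.13, edgeR adjusted p = 0.377). The value stayed between -0.40 and -0.21 over the alternatives.

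Endothelium makes both Thbd and Plat. Of 11 endothelial markers 10 had log2 fold changes below 0 and 0 were called, with a median of -0.40. This was not particular to endothelium: 7 of 8 pericyte and smooth muscle markers lay below 0 (median -0.44), 4 of 5 Schwann cell markers (-0.76), 6 of 8 RPE markers (-0.28) and 5 of 6 fibroblast markers (-0.21), with 0 called. Endothelial markers summed to 1043, 807 and 701 CPM in knockout-labelled animals and 1143, 1084 and 1134 CPM (wild type). In bulk tissue fewer cells of a type and less RNA per cell cannot be told apart. The part of endothelial or other cell content in the values of Plat and Thbd was not tested.

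F3 read 223, 261 and 207 CPM (knockout-labelled) and 243, 201 and 207 CPM (wild type) (chromosome 3, 121723537 to 121735048, plus strand). The groups overlapped throughout, with a log2 fold change fitted at 0.09 (SE 0.14, edgeR adjusted p = 0.837). The value of F3 turned to -0.01 without knockout-labelled animal 2 and to -0.05 with the cornea marker covariate. Tfpi read 36.4, 28.8 and 29.9 CPM and 36.7, 27.9 and 32.9 CPM (chromosome 2, 84432855 to 84476775, minus strand). Its log2 fold change was -0.04 (SE 0.16, edgeR adjusted p = 0.946), and animal 1, the female, was the highest of each group. The ratio of F3 to Tfpi per length lay between 13.2 and 19.6 in knockout-labelled animals and between 13.6 and 15.6 in wild-type animals. The initiator and its inhibitor thus kept overlapping ratios. The ratio of Thbd to F3 overlapped too, reaching 0.33 to 0.47 in knockout-labelled and 0.47 to 0.56 in wild-type animals.

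**Figure D3:**
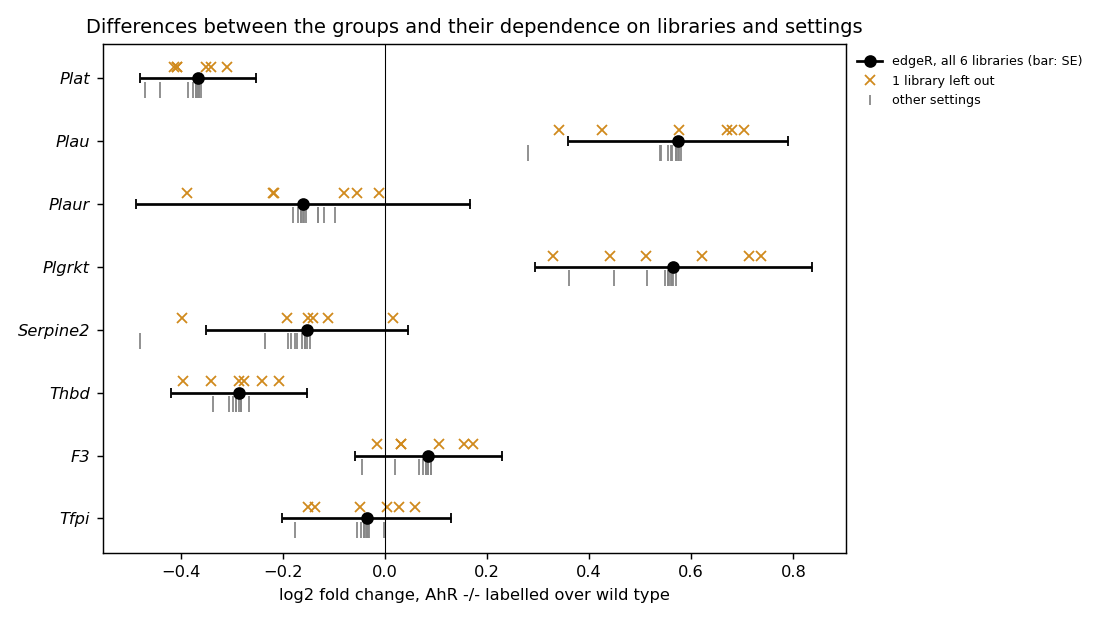
Log2 fold change (horizontal axis, knockout-labelled over wild type) of each member: black points with SE bars from edgeR on all 6 libraries, orange crosses with 1 library left out, grey ticks for the other settings. Plat, Plau, Plaur, Plgrkt and Thbd keep their sign throughout, and Serpine2, F3 and Tfpi cross 0.

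Per kilobase of exon, F3 and Serpine2 led the members in wild-type animals, at 85.9 ± 8.93 and 79.1 ± 1.76 CPM per kb (SD, n = 3 each), and their libraries overlapped. Thbd followed at 43.8 ± 5.16, then Plat at 13.9 ± 0.99, Plau at 9.33 ± 1.66 and Tfpi at 5.95 ± 0.81 CPM per kb (SD, n = 3 each), with no overlap between neighbours. Plgrkt at 2.36 ± 0.53 and Plaur at 2.15 ± 0.58 CPM per kb came last and overlapped. In knockout-labelled animals F3 and Serpine2 again overlapped, Plau stood above Plat, and Plgrkt lay clear of Plaur. These levels use the union of annotated exons in GENCODE M21, which overstates the length of a gene with unused exons.

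Likeness over the 6 libraries was measured by Pearson's r of log2 CPM against 13852 other genes. So many genes over so few libraries leave high values common, and all share library and depth. Plat was most like Leprel2 (0.989) and Plekhg5 (0.988), and Plau most like Lrrc42 (0.995) and Hsbp1 (0.991). Plgrkt was most like Uri1 (0.992) and Fsd2 (0.990), Serpine2 most like Tmed8 and Xrcc2 (0.995 each), and Thbd most like Agpat4 (0.995) and Ptgs2 (0.988). F3 was most like Scml2 (0.995) and Kbtbd4 (0.987), Plaur most like Mzt2 (0.977) and Cd82 (0.974), and Tfpi most like Ms4a6b (0.993) and Igfbp3 (0.979). Between members, the farthest from 0 was Plgrkt against Thbd, at -0.90.

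The rest of the plasminogen system was listed as 20 genes, of which 14 passed the filter, 0 were called, 6 lay above 0 and 8 below (median log2 fold change -0.08). An unadjusted p under 0.05 was reached by 4 of the 14, against 14.2% of all genes. Plg itself, the substrate of the activators, had 0 counts in all 6 libraries, which allows up to 3 counts or 0.104 to 0.165 CPM per library. Anxa2 and S100a10 encode the subunits of the annexin A2 complex, which binds plasminogen and Plat at the cell surface. Anxa2 read 1472, 2465 and 2234 CPM (knockout-labelled) and 1366, 1069 and 1101 CPM (wild type). S100a10 read 147, 264 and 233 CPM and 126, 97.0 and 108 CPM. In both genes every knockout-labelled library was above every wild-type library, with animals 2 and 3 well above animal 1. The log2 fold changes were 0.80 (SE 0.21, edgeR adjusted p = 0.185) for Anxa2 and 0.96 (SE 0.21, edgeR adjusted p = 0.145) for S100a10. DESeq2 called both (adjusted p = 0.00637 and 0.00202), as did edgeR without knockout-labelled animal 1 (0.0172 and 0.0117), and the authors' deposited table lists FDR values of 0.0281 and 0.00355. Over all alternatives their adjusted p reached 0.565 and 0.492. The edgeR fit without knockout-labelled animal 1 called 795 genes across the table, against 8 with every library kept.

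The order of the libraries in Anxa2 and S100a10 was close to their order in cornea and conjunctiva markers. Knockout-labelled animals 2 and 3 were highest in all of these, and wild-type animals 2 and 3 lowest. The exception was animal 1 of each group. The markers summed to 3775 CPM in knockout-labelled animal 1, below the 6367 CPM of wild-type animal 1. Anxa2 (1472 against 1366 CPM) and S100a10 (147 against 126 CPM) were instead higher in knockout-labelled animal 1. The marker level, as mean log2 CPM, was 8.33, 10.2 and 9.91 in knockout-labelled and 9.06, 7.62 and 8.02 in wild-type animals. It partly follows genotype, so a covariate on it cannot fully separate epithelial content from genotype. With the marker level as a covariate the log2 fold changes of Anxa2 and S100a10 were 0.35 and 0.46. Neither was called in edgeR with it (adjusted p = 0.565 and 0.442) or without it. The same holds for F2rl1, encoding the protease-activated receptor that trypsin-like proteases cleave, at 11.6, 17.0 and 19.7 CPM in knockout-labelled and 9.51, 3.51 and 4.08 CPM (wild type). Its log2 fold change went from 1.49 (SE 0.40, edgeR adjusted p = 0.185) to 0.84 with that covariate. F2rl1 was called by DESeq2 (adjusted p = 0.017) and the edgeR exact test (adjusted p = 0.0265), while the alternatives reached 0.525. The authors' deposited table lists an FDR of 0.0107 for it. Among members, Plau, Plgrkt and Serpine2 had their highest reading in knockout-labelled animal 2, the library with the highest epithelial sum, and their knockout-labelled libraries followed the order of that sum. F3 was also highest in animal 2, but its animal 1 was above animal 3, against that order. Plat followed the order of the sum within each group, though it was lower in the knockout-labelled group. In wild-type animals none of Plau, Plgrkt and Serpine2 followed that order. Plgrkt was lowest in animal 1, the wild-type library with the highest epithelial sum. Serpine2 was highest in animal 2, the wild-type library with the lowest sum, and Plau was higher in animal 2 than in animal 3. The part of epithelial content in these values was not tested beyond the covariate.

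**Figure D4:**
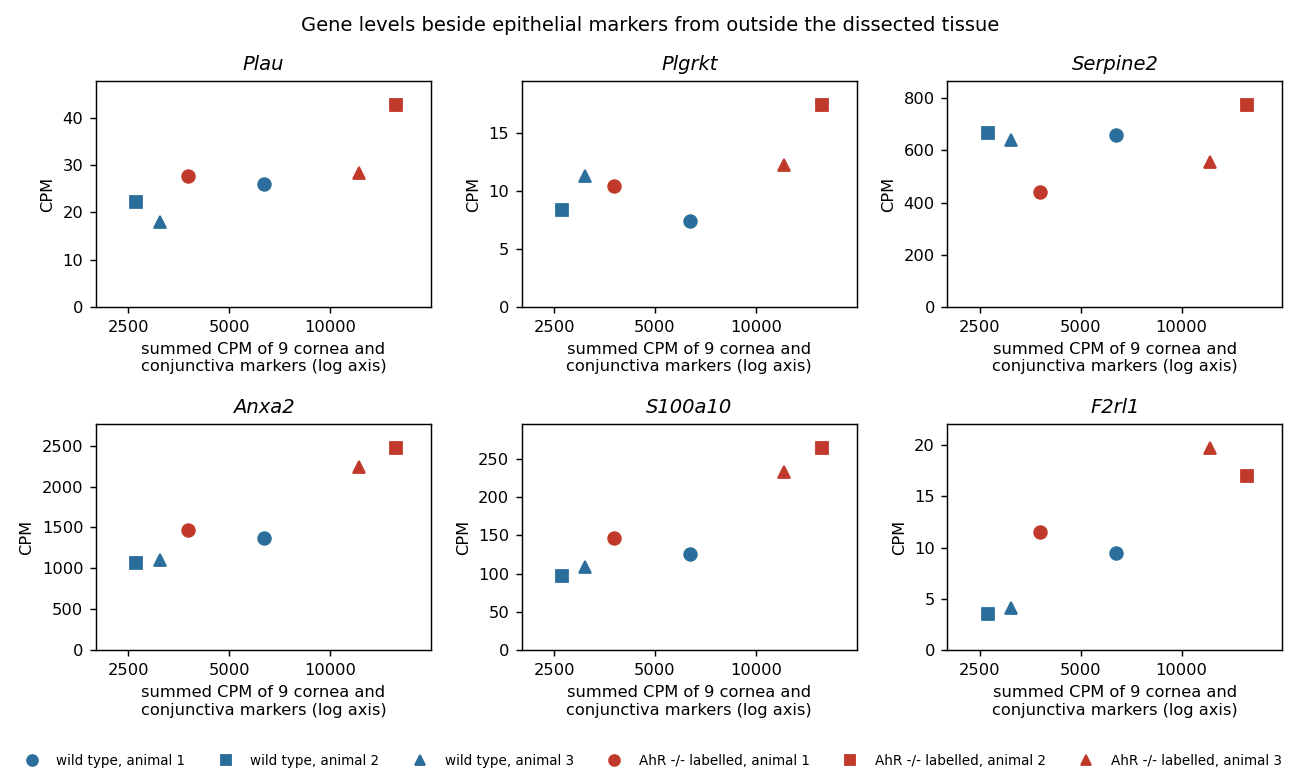
CPM of 3 members and 3 other genes of the pathway (vertical axes, from 0) against the summed CPM of 9 cornea and conjunctiva markers (log axis) in each library, wild type in blue and knockout-labelled in red. Anxa2, S100a10 and F2rl1 are highest in knockout-labelled animals 2 and 3, where the markers sum to 15706 and 12167 CPM.

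Lrp1, which internalises activator-inhibitor complexes, read 1601, 1072 and 1344 CPM (knockout-labelled) and 1917, 2147 and 1586 CPM (wild type) (log2 fold change -0.49, SE 0.19, edgeR adjusted p = 0.299). Mrc2, a collagen receptor that associates with the urokinase receptor, was below every wild-type library (-0.45, SE 0.15, edgeR adjusted p = 0.239). After a correction for GC content these values were -0.28 and -0.20. Vldlr and Vtn, named for their high CPM, had values of -0.07 and -0.15, and both turned above 0 with the cornea marker covariate and without wild-type animal 3. Serpinb2, a serpin that inhibits urokinase, lies outside the rule for naming and was chosen after its values were seen. It is known as a dioxin-responsive gene and had 3 to 70 counts per library. It read 0.13, 1.65 and 2.82 CPM (knockout-labelled) and 0.60, 0.29 and 0.62 CPM (wild type), and its direction turned with the cornea marker covariate.

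Of 32 other genes of the clotting cascade and its brakes, 19 passed the filter and 0 were called, with 9 above 0 and 10 below (median log2 fold change -0.04). The unadjusted p was under 0.05 in 4 of the 19, against 14.2% of all genes. Vkorc1 and Ggcx, the enzymes of the vitamin K cycle that activate clotting factors by carboxylation, were both below every wild-type library. Vkorc1 read 43.9, 47.0 and 46.7 CPM (knockout-labelled) and 66.4, 74.2 and 57.1 CPM (wild type) (-0.52, SE 0.13, edgeR adjusted p = 0.178). DESeq2 called Vkorc1 (adjusted p = 0.047), and the alternatives reached 0.525. Ggcx read 38.4, 34.5 and 39.8 CPM and 53.5, 54.0 and 44.7 CPM (-0.43, SE 0.14, edgeR adjusted p = 0.232). F13a1, the fibrin cross-linking transglutaminase made by resident macrophages, had a log2 fold change fitted at 0.66 (SE 0.25, edgeR adjusted p = 0.303). Anxa5 and Gas6, named for their high CPM, had values of -0.12 and 0.01. The fibrinogen genes Fga, Fgb and Fgg and the thrombin gene F2, which the liver makes, did not pass the filter.

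The 11 growth factors and receptors that plasmin or its activators act on all passed the filter, 0 were called, and the median log2 fold change was -0.08 (5 above 0 and 6 below). Tgfb1, whose latent protein plasmin can release, was the 1 gene of these at an unadjusted p under 0.05, against 14.2% of all genes. It read 36.7, 38.0 and 37.8 CPM (knockout-labelled) and 50.6, 55.0 and 44.2 CPM (wild type), with no overlap (-0.41, SE 0.13, edgeR adjusted p = 0.236). Vegfa had a value of -0.43 (SE 0.22, edgeR adjusted p = 0.409), with knockout-labelled animal 1 among the wild type. It was called in edgeR without that library (-0.72, adjusted p = 0.0318), but was -0.26 without knockout-labelled animal 2 and -0.07 with the cornea marker covariate (adjusted p = 0.954). The fit without knockout-labelled animal 1 called 795 genes across the table. Igf1 had a value of 0.23, which was 0.12 without wild-type animal 3 and 0.07 with the GC correction. Fgf2, at under 5 CPM in every library, had a value of 1.11, which was 0.74 when either knockout-labelled animal 2 or wild-type animal 3 was left out and 0.65 with the cornea marker covariate. Met and Pdgfra had values of 0.06 and -0.11.

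Of 15 transcription factors known to act on promoters of the members, 14 passed the filter and 0 were called, with 4 above 0 and 10 below (median log2 fold change -0.09). Klf2, the flow-sensing endothelial factor that activates Thbd, read 38.8, 38.3 and 41.7 CPM (knockout-labelled) and 103, 59.3 and 71.9 CPM (wild type). The groups did not overlap, and the knockout-labelled libraries were nearly alike. The log2 fold change of Klf2 was -0.98 (SE 0.19, edgeR adjusted p = 0.128). It was called by DESeq2 (adjusted p = 0.00121) and by the edgeR exact test (adjusted p = 0.00199), and the authors' deposited table lists an FDR of 0.000566. Without knockout-labelled animal 1 its edgeR adjusted p was 0.0452, in a fit that called 795 genes across the table. Over all alternatives its adjusted p ran up to 0.372. Its log2 fold change ran from -1.20 with the cornea marker covariate to -0.66 with the GC correction (edgeR adjusted p = 0.288). Without wild-type animal 1 it was -0.73. Thbd and Klf2 shared the same highest library, wild-type animal 1, and the log2 difference of Thbd was the smaller. Plat and Egr1 were also highest in that library. The knockout-labelled animals had the same order in Thbd and Klf2, while wild-type animals 2 and 3 had opposite orders. A link between Klf2 and Thbd was not tested. Of the AP-1 genes, whose site lay in the Plaur and F3 windows, Jund was below every wild-type library (-0.46, SE 0.13, edgeR adjusted p = 0.186), and that went to -0.02 with the GC correction. Jun had a value of 0.07. Egr1, which acts on F3, read 52.2, 118 and 228 CPM (knockout-labelled) and 252, 207 and 201 CPM (wild type) (-0.73, SE 0.41, edgeR adjusted p = 0.461), while F3 itself showed no such spread. Egr1 was -0.35 without knockout-labelled animal 1, -1.38 without animal 3 and -1.71 with the cornea marker covariate. Hif1a had a value of 0.32, and of 0.14 with the cornea marker covariate, and Sp1 of -0.04.

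**Figure D5:**
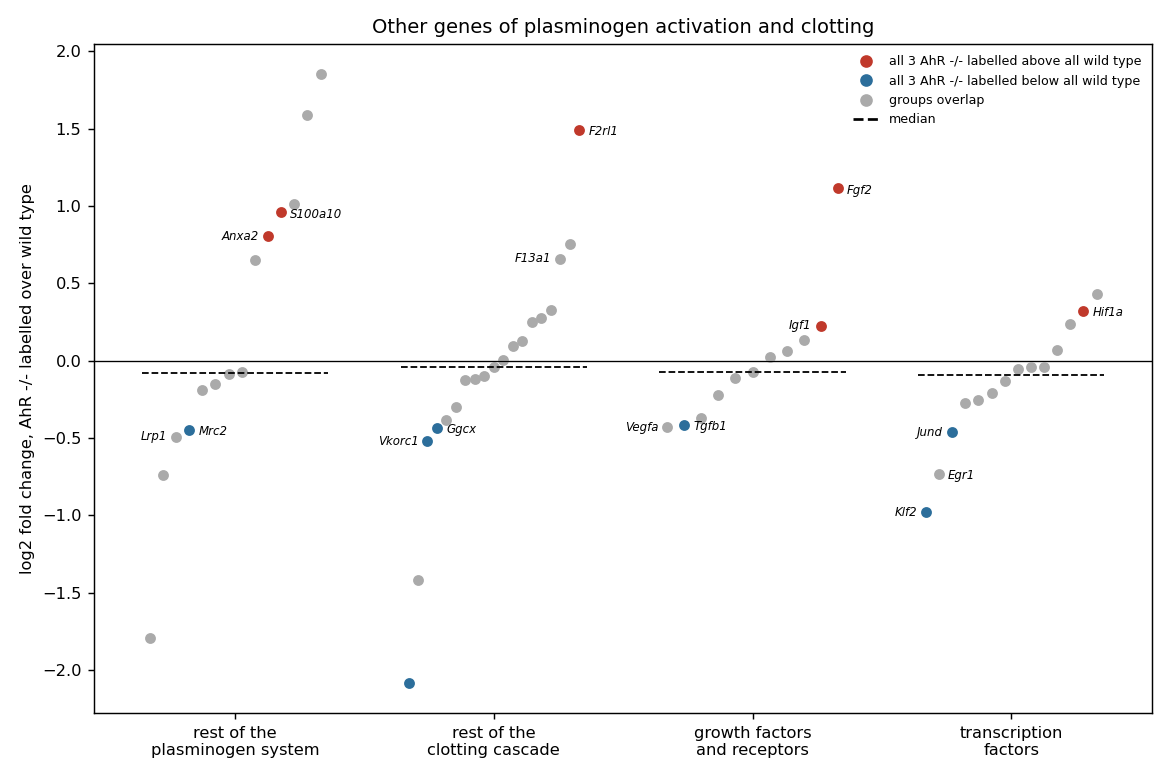
Log2 fold change (vertical axis, knockout-labelled over wild type) of every tested gene in the 4 lists, each point a gene, with dashed lines at the list medians; red and blue mark genes whose libraries do not overlap between the groups. The medians lie between -0.09 and -0.04, with S100a10, Anxa2 and F2rl1 above and Klf2 below.

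Of the members, 7 have a row in the authors' deposited table, and 0 of these reach an FDR under 0.05, where 2.37% of its 16561 rows do. With the sign turned to knockout over wild type, the authors' deposited table lists log2 fold changes of -0.37 for Plat, 0.54 for Plau and -0.27 for Thbd. Its FDR values for these are 0.436, 0.277 and 0.674.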

How the data were processed

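Whole-number gene counts per animal were deposited by the authors, and the submitters' processing notes name Bowtie, TopHat, HTSeq, edgeR and the build mm10. Versions, annotation and strand setting are not named in the sources used here. No annotated exon of another gene overlaps those of a member in GENCODE M21. A second table holds the authors' deposited edgeR results: log2 fold changes (coded wild type over knockout, sign turned here), log2 CPM, p-values and FDR.

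The counting tool's 5 tally rows entered neither library sizes nor tests. Reads assigned to no gene made up 14.4% to 16.8% of the sum of a library's gene and tally rows. The test was edgeR 4.0.16 (R 4.3.3) on counts kept by filterByExpr (minimum count 10, minimum total 15) and scaled by TMM. Its quasi-likelihood model (glmQLFit, glmQLFTest) held genotype alone, and p was adjusted by Benjamini-Hochberg across 15796 genes. CPM used TMM-adjusted library sizes, and SE was taken as |log2 fold change| over the root of the F statistic. The script was tested on simulated data. Each animal is 1 library, so the p-values set the difference between the groups against the spread between animals. That spread is estimated partly from other genes. The precision of each value depends on its count and on that spread.

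The members, lists and several alternatives were chosen with earlier results of these data known. The rule for naming took all members, Ahr, and from each list called genes, the 4 smallest unadjusted p and the 2 highest CPM besides; likeness took 2 genes per member among those averaging 1 CPM or more, and log2 CPM used a prior count of 2. Alternatives were RLE and upper-quartile factors, other filters, DESeq2 1.42.0, limma-voom (limma 3.58.1), the edgeR exact test, the replicate block, sex, the mean log2 CPM of 9 cornea markers, a GC correction by lowess (span 0.3), each library left out, and an adjusted p under 0.1.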

Additional observations from a re-analysis of the deposited data

Results flagged for a closer look

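The share of reads that aligned to more than 1 place, a tally that enters none of the comparisons, was above every control library in the knockout-labelled libraries. It averaged 23.9% of all rows there, in the range 22.9% to 25.1%, against 18.7% to 19.4% in the wild type. Such reads are missing from the counts of every gene, the members included, and their part in the values was not tested.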

How the results depend on the processing

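No alternative called a member (0 of 8 under each, an adjusted p under 0.1 included). Of 136 member values under 17 alternatives, 130 kept their sign and 6 did not. The number of genes called across the table was 8. It was 15 with upper-quartile factors, 22 with no filter, 16 with a CPM of at least 1 in 3 libraries, 483 with DESeq2, 13 with limma-voom, 357 with the edgeR exact test, 23 with the cornea marker covariate, 1 with the sex covariate and 30 at an adjusted p under 0.1. Leaving out 1 library gave 0 to 795 genes, the 795 without knockout-labelled animal 1. With the animal number as a replicate block 1 gene was called, and 0 members. Deviations of same-numbered animals from their group means correlated at -0.096, -0.0921 and -0.0672. Those of differently numbered animals correlated at -0.00468 to 0.0934. Same-numbered animals thus showed no positive correlation. Deviations within a group balance out by construction, so the values are not independent of each other. With so few animals these values cannot exclude a pairing, and same-numbered animals were of the same sex. The cause of the moves in the number of genes called was not tested. Log2 fold changes that turned sign were F3 -0.045, Serpinb2 -1.04, Vldlr 0.12, Vtn 0.069, Pdgfra 0.17 and Jun -0.035 with the cornea marker covariate; Gas6 -0.0037 with upper-quartile factors; Gas6 -0.012 with no filter; Met -0.0102 with the GC correction. With 1 library left out, the sign also turned within these ranges: Serpine2 from -0.40 to 0.016, F3 from -0.015 to 0.17, Tfpi from -0.15 to 0.058, Vldlr from -0.21 to 0.025 and Vtn from -0.29 to 0.087. It did so too for Gas6 from -0.11 to 0.14, Met from -0.088 to 0.15, Pdgfra from -0.28 to 0.025, Jun from -0.063 to 0.16 and Sp1 from -0.11 to 0.0055. Plaur at 99 to 166 counts and Serpinb2 at 3 to 70 counts are limited by depth.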
